A study of Mus musculus with 6 samples.

Results

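This report concerns genes of the red blood cell lineage measured in mouse articular cartilage. They are 3 regulators of red cell formation (Gata1, Klf1 and Epor), the transferrin receptor gene Tfrc, and genes for proteins of the mature red cell (Slc4a1, Epb42, Rhag and Ahsp). Members were found by gene symbol, and 7 of the 8 symbols had a row among the 33971 genes of the count and FPKM table. Ahsp matched no row and was not analysed here. RNA was sequenced from articular cartilage of wildtype (WT) mice aged 2 months, in 3 libraries, and of WT mice aged 18 months, also in 3 libraries. No library carried a treatment or an altered allele, and the study's methods describe male mice. However, Xist, the transcript of the inactive X, was far lower in every 18-month library than in every 2-month library. Sex and age can therefore not be told apart in any comparison here. The labels do not say whether the libraries of one age came from separate animals, so p-values measure only the spread between these libraries.

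Red blood cells are made in the bone marrow from progenitors that depend on the hormone erythropoietin, which acts through its receptor. The transcription factors GATA1 and KLF1 then switch on the genes for haemoglobin, haem synthesis and the red cell membrane, while the transferrin receptor brings in the iron that haem needs. Articular cartilage has no blood vessels of its own and lies on bone that encloses marrow, and chondrocytes are not known as a site of red cell formation.

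All 7 genes had a higher level in every 18-month library than in every 2-month library. The mean FPKM (fragments per kilobase of transcript, scaled to the fragments of the library) was 3.32-fold higher at 18 months for Tfrc and 11.9-fold to 19.1-fold higher for the other 6. Only Tfrc passed both limits of the test, which were an adjusted p below 0.05 and a log2 fold change above 1 or below -1 in edgeR. This was 1 of 7 genes, against 14.9% of all 20397 genes tested that passed as higher, 21.3% that passed as lower and 36.3% that passed in either direction. Without overlap between the ages, 33.9% of all genes tested were higher at 18 months and 34.6% were lower, so this separation was common in these data. The 2-month libraries were far apart from each other: replicate 2 held 92.7% to 99.4% of the 2-month counts of the 6 genes other than Tfrc. When that library was left out, 7 of the 7 genes passed both limits as higher, against 23.3% of all genes tested. With any other library left out, 0 of the 7 passed. That library was picked by the counts of these same genes, so the passing without it is a description and no independent support. In bulk tissue, fewer cells of a type and less RNA per cell cannot be told apart.

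The sequence before the start of these genes was read for the letters that the lineage's factors are known to bind. Promoter sequences from RefSeq (GRCm38.p6) were matched for 6 of the 7 genes, in 7 windows since Tfrc has more than 1 listed start, and none was matched for Slc4a1. Each window holds the 250 bases before the RefSeq start. The windows of Klf1, Rhag and Epb42 and 1 of those of Tfrc reach into the gene as the deposited table bounds it, and the window of Gata1 lies wholly inside it. The GATA letters given next lie outside the bounded genes. The GATA motif searched was GATA with A or T before it and A or G after it, on both strands, and 26.5% of all 32851 windows of that length hold it. The windows of Klf1, Epor, Rhag and Epb42 hold it once each, on the opposite strand, and those of Gata1 and Tfrc do not. They are shown for these 4 genes in lower case, 5′ to 3′ on the gene's own strand, with the GATA letters, the CACCC-like letters and the E-box triplet described next in capitals.
Klf1, chr8:84901732-84901981, plus strand: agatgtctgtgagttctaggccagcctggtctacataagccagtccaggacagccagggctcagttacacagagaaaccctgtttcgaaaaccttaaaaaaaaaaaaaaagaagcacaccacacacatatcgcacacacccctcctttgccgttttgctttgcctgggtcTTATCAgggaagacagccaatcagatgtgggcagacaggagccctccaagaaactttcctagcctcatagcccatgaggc
Epor, chr9:21963577-21963826, minus strand: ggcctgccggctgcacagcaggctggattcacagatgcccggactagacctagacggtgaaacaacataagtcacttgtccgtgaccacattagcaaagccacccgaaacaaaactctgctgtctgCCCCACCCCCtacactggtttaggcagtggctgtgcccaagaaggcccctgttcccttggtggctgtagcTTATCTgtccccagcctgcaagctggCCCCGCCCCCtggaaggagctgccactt
Rhag, chr17:40810899-40811148, plus strand: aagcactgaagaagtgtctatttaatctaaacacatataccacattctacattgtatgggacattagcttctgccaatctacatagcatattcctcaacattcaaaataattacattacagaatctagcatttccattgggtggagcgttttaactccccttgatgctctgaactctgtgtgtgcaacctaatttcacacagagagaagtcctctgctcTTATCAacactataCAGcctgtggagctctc
Epb42, chr2:121036878-121037127, minus strand: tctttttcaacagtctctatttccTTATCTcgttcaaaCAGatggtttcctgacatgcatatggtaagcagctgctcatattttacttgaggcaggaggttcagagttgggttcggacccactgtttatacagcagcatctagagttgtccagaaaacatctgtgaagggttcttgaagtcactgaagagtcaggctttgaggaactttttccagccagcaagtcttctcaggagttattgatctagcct

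The GATA letters begin 80 bases before the start in Klf1, 54 in Epor, 31 in Rhag and 226 in Epb42. The letters CCNCNCCC, a form of the CACCC box that factors of the KLF family are known to bind, were found on either strand in the windows of Epor, Gata1 and Tfrc, with 4 overlapping or separate matches in Epor, 3 in Gata1, and 3 and 2 in the windows of Tfrc. The matches of Gata1, and the 2 in the later window of Tfrc, lie inside the gene as bounded. Of all windows 45.9% hold these letters, and 8.19% hold them together with the GATA letters, as the window of Epor does. The arrangement of CTG, any 9 bases and GATA on either strand, which overlaps the GATA letters and joins them to part of an E-box of the kind that TAL1 binds, was found in Rhag and Epb42 and in 2.16% of all windows. Of this arrangement in Rhag, the E-box triplet lies inside the gene as bounded. All of these matches describe letters only, and no binding was measured.

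Gata1 (ENSMUSG00000031162, chromosome X, 7959260 to 7978071, minus strand) encodes the leading transcription factor of red cell, megakaryocyte and mast cell development. It had 0, 584 and 13 counts in 2-month replicates 1, 2 and 3 and 4089, 4225 and 4277 counts in the 18-month replicates. The count of 0 allows a level of up to 0.0621 CPM (counts per 1e+06 counts of the library), taking 3 counts as the limit and covering counting error only. The 2-month libraries averaged 1.39 ± 2.33 FPKM (SD, n = 3) and the 18-month libraries 26.7 ± 1.49 FPKM (SD, n = 3). The 18-month replicates 1, 2 and 3 were at 24.9, 27.6 and 27.5 FPKM, and the lowest of them was 6.11-fold above the highest 2-month library. The log2 fold change was 4.26 ± 1.86 (SE), with an adjusted p of 0.101 in edgeR's quasi-likelihood test. Gata1 lies on the X chromosome, and Xist, the transcript of the inactive X, had 88239 to 102417 counts in the 2-month libraries against 11 to 30 at 18 months. Xist therefore divided the libraries exactly by age, although the methods name male mice, and sex and age cannot be told apart here.

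Klf1 (ENSMUSG00000054191, chromosome 8, 84901928 to 84905295, plus strand) encodes a zinc finger factor that activates the adult beta-globin gene and many red cell membrane genes. It had 7, 597 and 40 counts at 2 months and 4309, 4000 and 4014 counts at 18 months. It was the gene with the smallest relative spread among the 18-month libraries, with a coefficient of variation of 0.899% of its mean FPKM of 41.4. This is below the counting error of 1.58% of its smallest 18-month count, so no particular steadiness can be read from it. The 2-month mean of Klf1 was 2.39 ± 3.68 FPKM (SD, n = 3). The log2 fold change was 4.11 ± 1.45 (SE), and its adjusted p of 0.0574 in edgeR was the closest to the limit among the genes that missed it.

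Epor (ENSMUSG00000006235, chromosome 9, 21958897 to 21963506, minus strand) encodes the receptor through which erythropoietin keeps red cell progenitors alive. It had 0, 495 and 20 counts at 2 months and 2472, 3262 and 3579 counts at 18 months. Mean FPKM went from 1.47 ± 2.41 (SD, n = 3) at 2 months to 24.3 ± 5.12 (SD, n = 3) at 18 months. The 18-month libraries differed more for Epor than for any other of the 7 genes, with a coefficient of variation of 21.1%, since replicate 1 held 0.681 times the mean of replicates 2 and 3. The log2 fold change was 4.04 ± 1.75 (SE), with an adjusted p of 0.1001 in edgeR.

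Tfrc (ENSMUSG00000022797, chromosome 16, 32608920 to 32632794, plus strand) encodes the transferrin receptor, which most dividing cells use and which red cell precursors carry in great number. It had 4116, 17062 and 5569 counts at 2 months and 31439, 33757 and 34381 counts at 18 months. Tfrc had more counts than any other of the 7 genes in every 2-month library. By FPKM, Slc4a1 was above it in 2-month replicate 2, at 54.3 against 47.1. The FPKM of Tfrc was 25.1 ± 19.2 (SD, n = 3) at 2 months against 83.2 ± 6.57 (SD, n = 3) at 18 months. The lowest 18-month library was 1.60-fold above 2-month replicate 2, the narrowest gap among the 7 genes. Tfrc was higher at 18 months by 1.69 ± 0.50 (SE) on the log2 scale, with an adjusted p of 0.0340 in edgeR. This call rested on all 6 libraries together: without any 1 of the libraries other than 2-month replicate 2, Tfrc missed the limit, with adjusted p-values from 0.0626 to 0.106 in edgeR and log2 fold changes from 1.38 to 1.78. Without 2-month replicate 2 it was 2.47.

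Slc4a1 (ENSMUSG00000006574, chromosome 11, 102348824 to 102365280, minus strand) encodes band 3, the chloride-bicarbonate exchanger that anchors the red cell skeleton to the membrane. It had 91, 15529 and 305 counts at 2 months and 71843, 82537 and 83538 counts at 18 months. It had the highest level of the 7 genes at 18 months, 252 ± 28.7 FPKM (SD, n = 3) against 18.6 ± 30.9 FPKM (SD, n = 3) at 2 months. Slc4a1 had a log2 fold change of 3.77 ± 1.82 (SE) and an adjusted p of 0.129 in edgeR.

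Epb42 (ENSMUSG00000023216, chromosome 2, 121017891 to 121037072, minus strand) encodes protein 4.2, which binds band 3 and ankyrin at the inner face of the membrane. It had 10, 1577 and 24 counts at 2 months and 7377, 6768 and 6998 counts at 18 months. The young libraries averaged 1.69 ± 2.84 FPKM (SD, n = 3) and the aged ones 20.1 ± 0.228 FPKM (SD, n = 3). The aged libraries differed by a coefficient of variation of 1.13%, below the counting error of 1.22% of the smallest 18-month count. Epb42 had a log2 fold change of 3.58 ± 1.76 (SE) and an adjusted p of 0.136 in edgeR.

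Rhag (ENSMUSG00000023926, chromosome 17, 40811126 to 40840754, plus strand) encodes the Rh-associated glycoprotein, a gas and ammonium channel on which the Rh complex depends. It had 0, 1288 and 8 counts at 2 months and 7156, 9539 and 9040 counts at 18 months. Replicate 2 held 99.4% of its 2-month counts, the largest share among the 7 genes. Rhag averaged 3.15 ± 5.41 FPKM (SD, n = 3) in young and 57.0 ± 10.2 FPKM (SD, n = 3) in aged cartilage, with replicate 1 at 0.725 times the mean of replicates 2 and 3. The log2 fold change was 4.19 ± 2.14 (SE), and the adjusted p of 0.148 in edgeR was the highest of the 7.

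**Figure D1:**
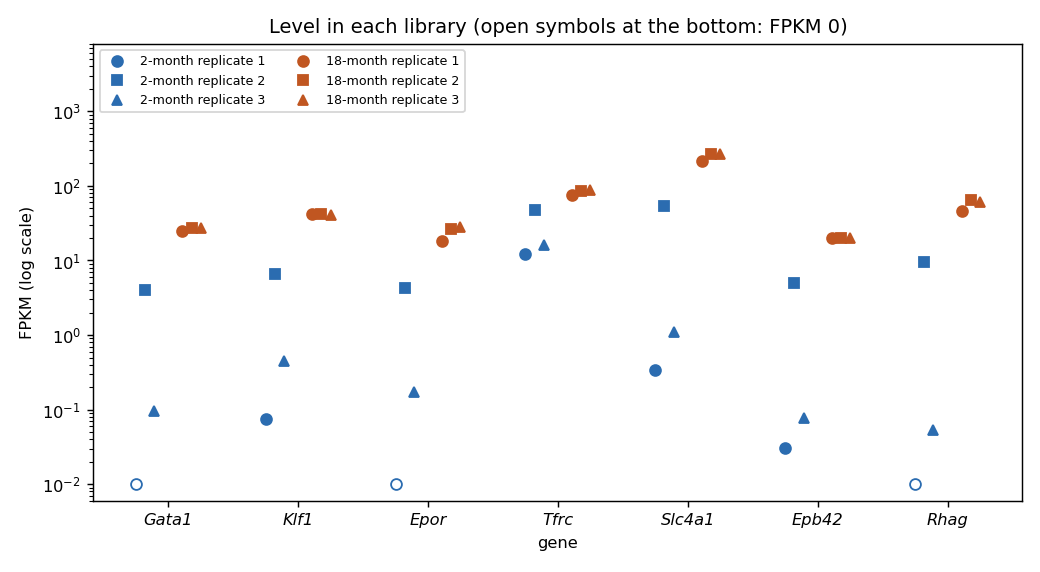
FPKM on a log axis of the 7 genes in each of the 6 libraries, with 2-month libraries in blue, 18-month libraries in orange and the replicate number given by the symbol; open circles at the bottom mark an FPKM of 0. For every gene the 18-month libraries lie above the 2-month libraries, and 2-month replicate 2 lies far above the other 2-month libraries.

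In aged cartilage the order of the mean FPKM was Slc4a1 (252), Tfrc (83.2), Rhag (57.0), Klf1 (41.4), Gata1 (26.7), Epor (24.3) and Epb42 (20.1). From Slc4a1 down to Gata1 the ranges of neighbouring genes did not overlap over the 3 libraries. The ranges of Gata1 and Epor overlapped, and so did those of Epor and Epb42, so neither of these neighbouring pairs differed beyond its spread. Gata1, at 24.9 to 27.6 FPKM, was above Epb42, at 19.9 to 20.3 FPKM, in each 18-month library. At 2 months Tfrc came first with a mean of 25.1 FPKM, ahead of Slc4a1 with 18.6, and the ranges of all neighbours in the order overlapped.

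The libraries without 2-month replicate 2 gave larger and steadier differences. This followed from the choice of that library, which held most of the 2-month counts of the 6 genes other than Tfrc. The log2 fold change became 9.0 for Gata1, 7.13 for Klf1, 7.96 for Epor, 8.34 for Slc4a1, 8.37 for Epb42 and 10.7 for Rhag, each with an adjusted p between 5.49e-05 and 0.000749 in edgeR. For Gata1 the standard error fell from 1.86 to 0.681, and for Epb42 from 1.76 to 0.332. No other library had this weight: with any other library left out, the log2 fold changes of these 6 genes lay between 3.01 and 4.34 and none of them passed the limits. Other ways of testing all 6 libraries gave other counts. DESeq2 called 3 of the 7 genes higher (Klf1, Slc4a1 and Tfrc), against 17% of all genes with an adjusted p. limma on log2(FPKM + 0.1) called 7 of 7 higher, against 20.3% of all genes tested.

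**Figure D2:**
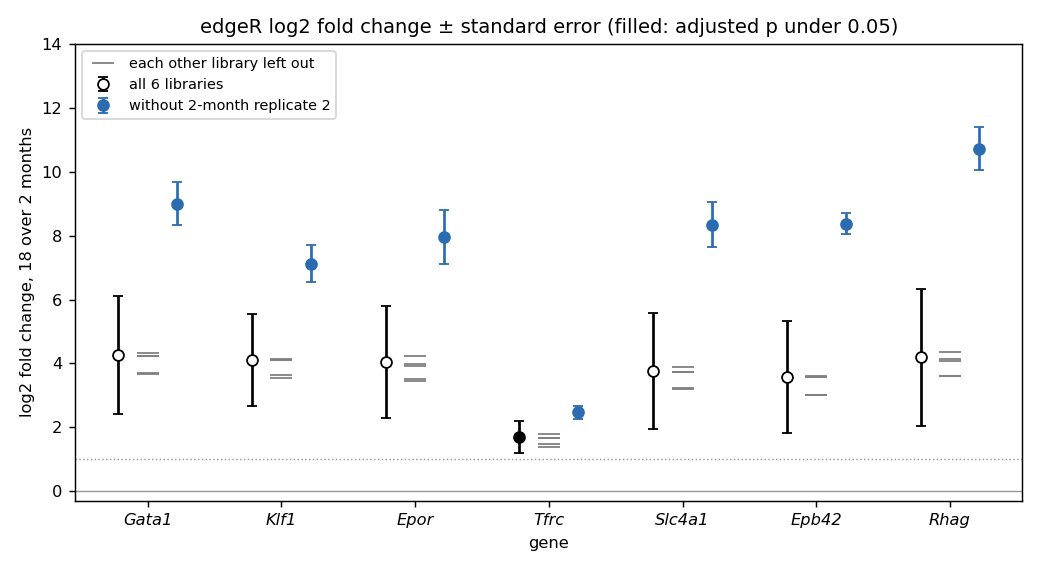
edgeR log2 fold change (18 over 2 months) of the 7 genes with all 6 libraries (black) and without 2-month replicate 2 (blue), with standard errors as bars and filled symbols for an adjusted p below 0.05; grey dashes give the fits that left out each other library, the dotted line marks a log2 fold change of 1. All values lie above 1, and the blue values lie above the black ones, from 2.47 for Tfrc to 10.7 for Rhag.

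In 2-month replicate 2 the 6 genes other than Tfrc stood at similar fractions of their 18-month mean. The FPKM there was 15.3% of the 18-month mean for Gata1, 16.0% for Klf1, 16.5% for Rhag, 17.5% for Epor, 21.6% for Slc4a1 and 24.7% for Epb42. In 2-month replicates 1 and 3 the same genes were at 0% to 1.10% of the 18-month mean. Tfrc was at 14.6%, 56.7% and 19.3% in 2-month replicates 1, 2 and 3.

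Markers of other cells divided the libraries in the same way, and their part in the result was not tested. A list of 14 neutrophil markers summed to 17.0, 5563 and 267 CPM in the 2-month libraries and to 42515 to 45345 at 18 months. Of that list Ly6g and Ctsg were at 0 counts in 2-month replicate 1 and Elane and Cxcr2 in replicate 3. The most abundant of them, S100a9, had 1522 FPKM in 2-month replicate 2 and 17751 to 19368 FPKM at 18 months. Of the 14 neutrophil markers edgeR called 0, with 3 at an unadjusted p below 0.05, while DESeq2 called 10 higher, limma on log2(FPKM + 0.1) 13, and edgeR without 2-month replicate 2 also 13. A list of 10 megakaryocyte markers summed to 7.47 to 76.0 CPM at 2 months and 1487 to 2228 at 18 months, with 9 of 10 called higher. The other ranges were 0.455 to 124.0 against 1800.0 to 2015 for mast cells, basophils and eosinophils (3 of 10 tested genes called higher), 31.4 to 793 against 2551 to 2792 for proliferation (6 of 10 higher) and 20.7 to 414 against 975 to 1105 for macrophages (2 of 10 higher). With 1 library left out, edgeR called 4 to 10 megakaryocyte markers higher and 1 to 9 of mast cells, basophils and eosinophils. It called 0 to 10 proliferation markers and 1 to 9 macrophage markers higher. Over all genes tested with 6 libraries, 14.9% were called higher and 21.3% lower. For 10 B lymphocyte markers 2-month replicate 2, with 330.0, lay above the 18-month range of 202 to 233. Of these edgeR called 0, with 0 at an unadjusted p below 0.05, DESeq2 called 0 of the 2 that it gave an adjusted p, limma on log2(FPKM + 0.1) called 1 higher, and edgeR without 2-month replicate 2 called 9 higher. Chondrocyte markers moved the other way, with 75361 to 88665 at 2 months and 8457, 1958 and 1948 in 18-month replicates 1, 2 and 3. Replicate 1 thus stood apart from the other 18-month libraries. Of these markers 16 of 16 were called lower, and Matn1 and Matn3 were at 0 counts in 18-month replicate 3. Osteoblast markers summed to 3573 to 5521 against 1069 to 1087 (2 of 6 called lower) and skeletal muscle markers to 85.6 to 161 against 6.41 to 7.88 (5 of 7 tested genes called lower). All libraries had a similar depth, 48171507 to 59085179 counts.

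**Figure D3:**
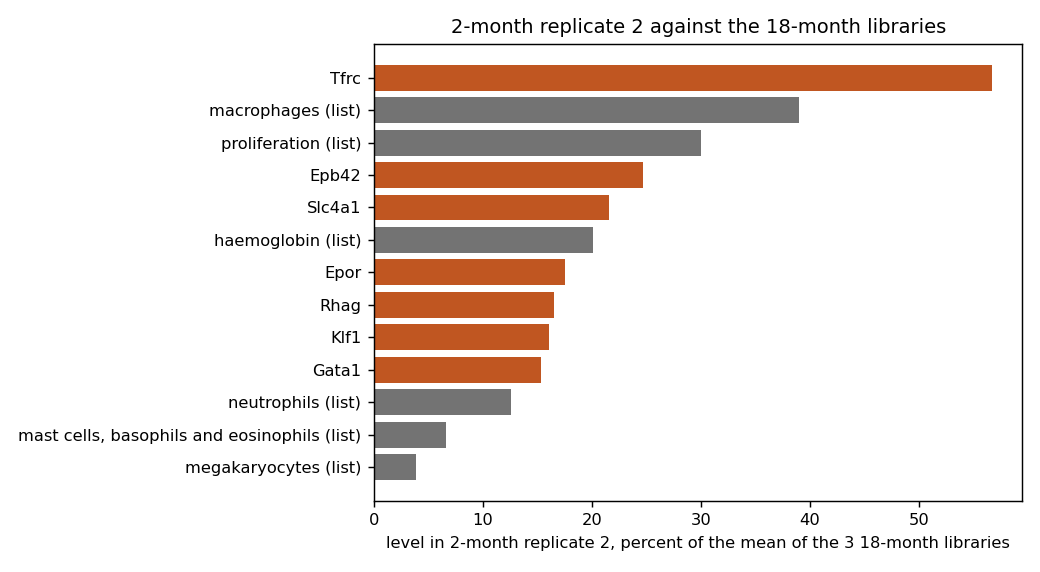
Level in 2-month replicate 2 as a percentage of the mean of the 18-month libraries, as FPKM for the 7 genes (orange) and as summed CPM for marker lists of other marrow cells and of proliferation (grey). The 6 genes other than Tfrc lie between 15.3% and 24.7%. The haemoglobin list, which includes Alas2, is at 20.1%, the neutrophil list at 12.6% and the proliferation list at 30.0%. The megakaryocyte list is at 3.88%, that of mast cells, basophils and eosinophils at 6.6% and the macrophage list at 39.0%. The B lymphocyte list, at 155%, is not plotted.

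Haemoglobin transcripts, the main product of the lineage, were compared with these genes within each library. Chondrocytes are also known to make haemoglobin, and the share of each source was not tested. The haemoglobin list also holds Alas2, a gene of haem synthesis. Of its 7 genes 5 were in the table, Alas2 among them. They summed to 245, 6195 and 687 CPM at 2 months and to 25254, 33589 and 33475 at 18 months, with 3 of 5 called higher. In edgeR 0 of 5 passed without the filter or with any library other than 2-month replicate 2 left out. Without 2-month replicate 2, 5 of 5 passed. The beta-globin gene Hbb-bs, whose reads could be divided with its near-identical copy Hbb-bt, had 93.9, 2683 and 298 FPKM at 2 months and 11352, 15495 and 15494 FPKM at 18 months. The following ratios to Hbb-bs were chosen after the values had been seen and are descriptions without a test. Slc4a1 had 3.60 FPKM per 1000 FPKM of Hbb-bs in 2-month replicate 1 and 3.71 in replicate 3. It had 20.2 in 2-month replicate 2 and 19.2, 17.3 and 17.3 in the 18-month libraries. Relative to beta-globin, 2-month replicate 2 was thus at or above the level of the aged libraries, and the other 2-month libraries were far below both.

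For Gata1, Epor, Epb42 and Rhag, 2-month replicates 1 and 3 also lay far below the other 4 libraries. In 2-month replicate 2, Epb42 was above every aged library, while Gata1, Epor and Rhag were a little below each of them. Rhag had 0 and 0.18 FPKM per 1000 FPKM of Hbb-bs in 2-month replicates 1 and 3, 3.51 in replicate 2 and 3.91 to 4.19 at 18 months. Gata1 had 0 and 0.318, then 1.52, and 1.78 to 2.20 at 18 months. Klf1 was less apart, with 0.796, 2.47 and 1.53 in the 2-month libraries and 2.65 to 3.68 at 18 months. Alas2, which encodes the first enzyme of haem synthesis in red cells and was included for comparison, kept nearly the same ratio in all 6 libraries, 13.7 to 17.1. Tfrc went the opposite way, with 129, 17.6 and 53.8 FPKM per 1000 FPKM of Hbb-bs at 2 months and 5.60 to 6.66 at 18 months.

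**Figure D4:**
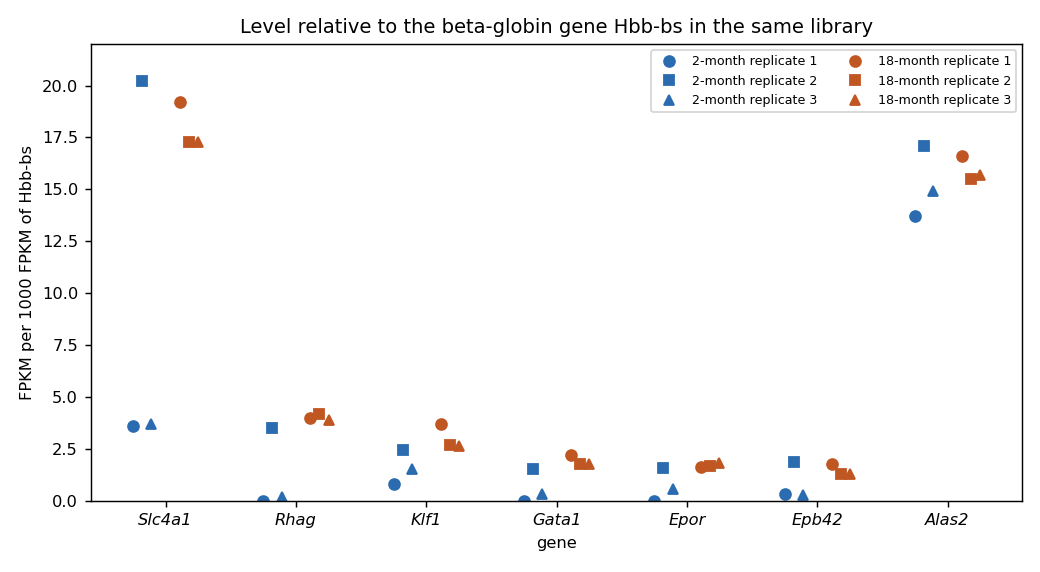
FPKM per 1000 FPKM of Hbb-bs in the same library, for 6 of the 7 genes and for Alas2, with symbols as in the plot of FPKM by library; Tfrc, at 5.60 to 129, is left out for scale. Slc4a1 lies at 3.60 and 3.71 in 2-month replicates 1 and 3 and at 17.3 to 20.2 in the other 4 libraries, while Alas2 lies between 13.7 and 17.1 in all of them.

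The make-up of the group also differed between libraries. Summed over the 6 genes other than Tfrc, FPKM was 0.444, 83.6 and 1.96 at 2 months and 370, 448 and 446 at 18 months. Slc4a1 took 59.1% to 60.1% of this sum at 18 months and 64.9% in 2-month replicate 2, and 76.2% and 56.5% in 2-month replicates 1 and 3. Klf1 took 9.21% to 11.3% at 18 months and 16.8%, 7.94% and 23.3% in 2-month replicates 1, 2 and 3. Rhag took 12.3% to 14.5% at 18 months, 11.2% in 2-month replicate 2, and 0% and 2.73% in replicates 1 and 3. In those replicates few counts stood behind each share.

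The level of Tfrc against the summed level of the other 6 was compared as a log2 ratio of FPKM, with 0.1 added to each sum. It was 4.49, -0.825 and 2.97 at 2 months and -2.29, -2.37 and -2.35 at 18 months. Tfrc was thus above the sum of the others in 2-month replicates 1 and 3 and below it in the other 4 libraries. The difference of the means was -4.55 (18-month minus 2-month), with a two-sided exact permutation p of 0.1, the smallest that 3 libraries against 3 allow, and 0.2 after adjustment over 2 ratios. The log2 ratio of the red cell proteins (Slc4a1, Epb42 and Rhag) to the regulators (Gata1, Klf1 and Epor) was 1.42, 2.19 and 0.703 at 2 months and 1.74, 1.89 and 1.85 at 18 months. These ranges overlapped, and the difference of 0.387 did not exceed the spread (two-sided exact permutation p = 0.5, adjusted 0.5). This difference depended on single libraries and on the pseudocount: leaving out 2-month replicate 2 gave 0.762 and leaving out 2-month replicate 3 gave 0.0191, and it was 0.865 with a pseudocount of 1 and 0.118 with 0.01. On counts in place of FPKM it was -0.05.

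The pathway around these genes was described by 4 lists of other genes, of which counts and medians are given without a test of the list. The median log2 fold change over all genes tested was -0.02, and 14.9% of them rose. Of 15 genes for transcription factors and partners that act in red cell development, 6 rose, 1 fell and 8 did not pass the test, and the median was 2.83. Lmo2, a bridging protein of the GATA1 complex, was the most abundant and rose by 3.49 ± 0.95 (SE) on the log2 scale, from 1.59, 16.1 and 1.99 FPKM to 73.9 to 76.0. Gfi1b, a repressor needed for red cell and platelet formation, rose by 4.98 ± 1.64, with an adjusted p of 0.0470 in edgeR. Gata2, which acts before GATA1 in progenitors, rose by 3.61 ± 0.66, with an adjusted p of 0.00709. Sox6, which also has a known part in cartilage formation, fell by 1.001 ± 0.16 on the log2 scale, from 7.47 ± 0.828 to 3.95 ± 0.333 FPKM (SD, n = 3 each). The call of Sox6 was at the edge of the fold limit, and it stayed below 0 in 13 of 13 alternatives but was past both limits in 4.

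Of 12 tested genes for erythropoietin and stem cell factor signalling, 7 rose and 5 did not pass the test, and the median was 1.56. Erfe, the hormone that red cell precursors release to raise iron supply, rose by 4.81 ± 0.59 (SE) on the log2 scale, with an adjusted p of 0.00229 in edgeR. It had 8, 15 and 9 counts at 2 months and 160, 415 and 484 at 18 months, so 2-month replicate 2 was not apart for this gene in the way it was for Epor. Cish, a feedback inhibitor induced by cytokine receptors, rose by 3.70 ± 0.61, with an adjusted p of 0.00519. Ptpn6, a phosphatase that dampens receptor signals in blood cells, was the most abundant, and its log2 fold change of 3.52 ± 1.298 had an adjusted p of 0.0654. Epo, which encodes the hormone itself and is named after its values were seen, was not tested, with 1 to 3 counts at 2 months and 2 to 9 at 18 months.

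Of 14 genes for the transferrin cycle and iron in the cell, 5 rose and 9 did not pass the test, and the median of 0.54 was the lowest of the 4 lists. Tfr2, the second transferrin receptor, rose by 3.74 ± 1.15 (SE) on the log2 scale, with an adjusted p of 0.0388 in edgeR. Slc25a37, the mitochondrial iron importer of red cell precursors, rose by 2.86 ± 0.56, from 7.44, 27.0 and 6.93 FPKM to 93.5, 106.7 and 106.9. Ftl1, the ferritin light chain, which has near-identical copies elsewhere in the genome, was the most abundant, and its log2 fold change was 0.41 ± 0.26 with an adjusted p of 0.228.

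Of 18 other genes for the red cell membrane and its skeleton, 11 rose and 7 did not pass the test, and the median was 2.94. In 18 of 18 every 18-month library was above every 2-month library, against 33.9% of all genes tested. Add2, a subunit of adducin, which caps actin in the skeleton, rose by 3.74 ± 1.199 (SE) on the log2 scale, with an adjusted p of 0.0434 in edgeR. Dmtn, an actin-bundling protein of the same skeleton, rose by 3.22 ± 0.67, with an adjusted p of 0.0108. Aqp1, the water channel of red cells, was the most abundant and rose by 2.63 ± 0.84, from 4.34, 54.5 and 17.1 FPKM to 137 to 172. Without 2-month replicate 2, 11 of the 15 transcription genes, 8 of the 12 signalling genes, 6 of the 14 iron genes and 17 of the 18 membrane genes passed both limits as higher, against 23.3% of all genes tested. Lmo2, Gfi1b, Tfr2, Aqp1 and Add2 missed them in edgeR when 2-month replicate 3 or any 1 of the 18-month libraries was left out, with adjusted p-values from 0.0606 to 0.1295, and Add2 also without 2-month replicate 1. With all 6 libraries but no filter on low counts, Gfi1b, Tfr2, Aqp1 and Add2 also missed them, with adjusted p-values from 0.0543 to 0.0666 in edgeR. Gata2, Erfe, Cish, Slc25a37 and Dmtn passed in each of the 13 alternatives.

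**Figure D5:**
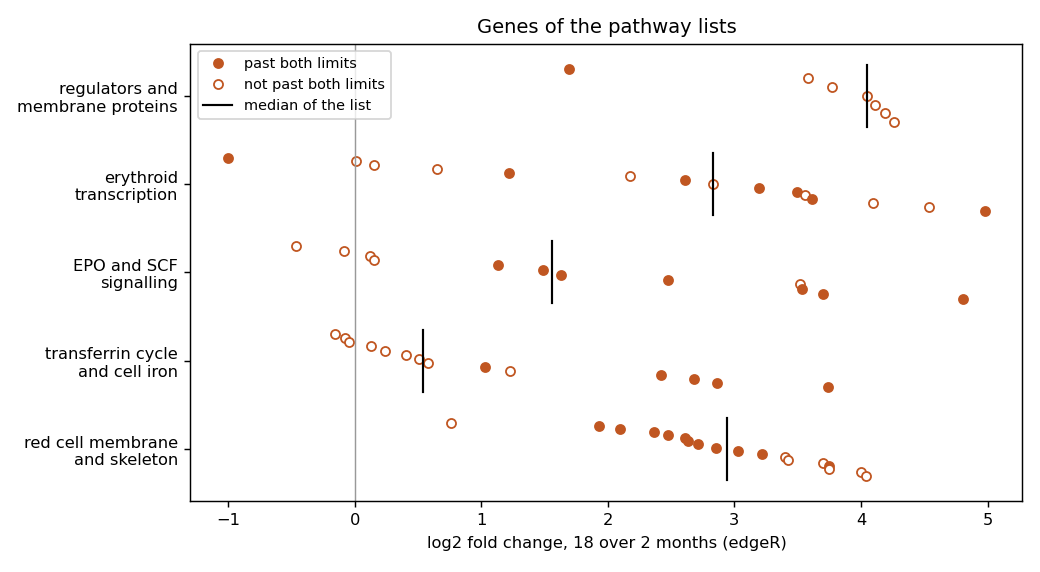
edgeR log2 fold change (18 over 2 months, all 6 libraries) of each tested gene, in rows for the 7 genes and for the 4 pathway lists, with filled symbols for genes past both limits and a vertical bar at the median of each row. The medians are 4.04, 2.83, 1.56, 0.54 and 2.94 from top to bottom, and genes with a lower log2 fold change are often filled while those near 4 are often open.

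Genes with a profile like that of the 7 were sought among the 13893 other genes whose FPKM averaged 1 or more, by the Euclidean distance of the centred log2 CPM over the 6 libraries to the median profile of the 7. The 5 nearest were Napsa at 0.393, Ncf4 at 0.415, Coro1a at 0.425, Themis2 at 0.444 and Kel at 0.447. Kel encodes the Kell blood group protein of the red cell, Ncf4 a subunit of the phagocyte NADPH oxidase and Coro1a an actin-binding protein of blood cells. Of the 7 genes themselves, Gata1 was at 0.335, Slc4a1 at 0.477, Epor at 0.754, Epb42 at 0.761, Klf1 at 1.36, Rhag at 1.76 and Tfrc at 6.49. There were 1842 other genes nearer to the median profile than Tfrc, and 192 nearer than Rhag. Coro1a had 0.327, 41.2 and 1.51 FPKM at 2 months and 267 to 294 at 18 months, divided between the libraries as Gata1 was.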

How the data were processed

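Articular cartilage RNA was sequenced in 6 libraries, 3 for each age. Libraries were poly(A)-selected and strand-specific with molecular identifiers, per the labels. The submitters' processing notes name cutadapt 1.9, HISAT2 2.0.4, UMI-tools, StringTie 1.3.4d, DESeq2 and edgeR without their roles. The table that the authors deposited holds, for each gene, raw counts in whole numbers and FPKM, which is scaled to transcript length and library size. Positions are those of the deposited table, and 91.3% of the genes found in GENCODE M21 (GRCm38) had identical coordinates there.

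The counts were analysed with edgeR 4.0.16 under R 4.3.3 (TMM, filterByExpr, quasi-likelihood, no block), adjusted by the Benjamini-Hochberg method over 20397 genes. Standard errors (SE) were obtained by dividing a log2 fold change by the root of its F statistic. Alternatives were DESeq2 1.42.0, limma 3.58.1 with trend on FPKM or TPM of genes with a mean of at least 0.1 FPKM, median-of-ratios size factors, no filter, a replicate block and leaving out each library. Ratios used exact permutation tests. The edgeR, limma and DESeq2 steps were tested on simulated data. The members and gene lists were chosen with earlier results of these data known. List genes are named by highest mean FPKM and by the largest rises and falls among called genes, and marker lists by their most abundant gene. No annotated gene overlaps the members, and 0 columns of values per library were left unused.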

Additional observations from a re-analysis of the deposited data

How the results depend on the processing

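Over 13 alternatives for each of the 7 genes, 91 in all, 60 kept their side of the limits, 26 moved past them, 5 (all of Tfrc) no longer passed and 0 changed direction. The number of the 7 genes called was 1 with all libraries in edgeR, 3 with DESeq2, 7 with limma on log2(FPKM + 0.1), 7 on log2(FPKM + 1) and 7 on log2(TPM + 0.1), and 0 to 7 when 1 library was left out. Over all genes, limma called 3041 of 21539 higher on log2(FPKM + 1) and 3109 of 21539 on log2(TPM + 0.1). With 1 library left out, edgeR called 2095 to 5007 of all genes higher, of 21356 to 21536 tested. For the other lists, the count of 7 called transcription genes became 11 with limma on log2(FPKM + 0.1) and 11 on log2(FPKM + 1), and 1 to 12 with 1 library left out. The count of 5 iron genes became 3 without the filter and 2 to 6 with 1 library left out. The count of 11 membrane genes became 17 in each of the 3 limma fits and 7 to 17 with 1 library left out, and that of 7 signalling genes stayed between 5 and 8 there. The cause was not tested beyond the library left out. The difference of the ratio of red cell proteins to regulators, 0.387 on FPKM, reversed to -0.05188 on counts with a pseudocount of 1.

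Of the 18 other genes named by rule, 234 alternatives gave 171 results on the same side, 29 newly past the limits, 34 no longer past them and 0 reversed. The called genes over the whole table numbered 5258 to 9594 under the alternatives, against 7401. Among called genes 41.2% were higher with all libraries in edgeR, 50.6% with limma on log2(FPKM + 0.1), 57.8% on log2(FPKM + 1), 34.8% on log2(TPM + 0.1) and 52.2% without 2-month replicate 2. On the TPM scale the median of all genes was -0.33, and each of the 7 genes was still called higher. With the replicate number as a block, 1 of the 7 genes was called, and 6, 7, 5 and 12 genes of the transcription, signalling, iron and membrane lists. Over all genes, that fit called 2523 of 20397 higher. Deviations of libraries with the same number correlated at r = 0.034, 0.044 and -0.024, and those with different numbers at r = -0.055 to 0.053. No pairing by number was thus seen, and whether libraries shared a preparation was not tested. At 0 to 40 counts in 2-month replicates 1 and 3, the levels of Gata1, Klf1, Epor, Epb42 and Rhag there are limited by counting.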
